A study of Macaca mulatta with 12 samples.

Results

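The genes described here encode the proteasome, the large protease that cells use to destroy ubiquitin-tagged proteins. They were chosen as the probe sets with exactly 1 gene symbol on the array's annotation that begins with PSMA to PSMG followed by a digit. This gave 73 of the 52707 probe sets tested and 33 genes of 12993 with a symbol that is not provisional, each gene being read from its brightest probe set, by the mean of all 12 arrays. One of the 33, PSMC3IP, fits the naming pattern but encodes a meiotic recombination protein that binds the subunit PSMC3, and is counted apart, which leaves 32 proteasome genes. Of 48 proteasome genes listed, 16 had no probe set with a single symbol, among them the immunoproteasome subunit PSMB9, the activator subunit PSME1 and the deubiquitinase PSMD14. These 16 are not analysed here.

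The proteasome core is a stack of alpha and beta rings, with the protease sites on the beta subunits PSMB5, PSMB6 and PSMB7, and the 19S cap unfolds substrates with the ATPases PSMC1 to PSMC6 and binds and trims ubiquitin chains with PSMD subunits. Interferon-exposed and antigen-presenting cells exchange the catalytic subunits: PSMB8 takes the place of PSMB5, PSMB9 that of PSMB6 and PSMB10 that of PSMB7. The resulting immunoproteasome, often capped by the PA28 activator made of PSME1 and PSME2, cuts peptides that suit presentation on major histocompatibility complex (MHC) class I molecules. Pluripotent cells are known for high proteasome activity, and non-immune cells generally make less of the immunoproteasome subunits.

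Rhesus macaque RNA was measured on 12 single-sample Affymetrix arrays, 3 for each of 4 cell populations, as log2 expression values. The skin fibroblasts came from back skin of 1 male donor aged 9 years and were grown in medium with fetal bovine serum, with no feeder cells named. ORMES-9 is an embryonic stem (ES) cell line described as a homozygous parthenote, with maternal genomes only, sampled at passages 13, 14 and 16. Its source field names a fertilised blastocyst instead, and this conflict was not resolved here. rPESC-2 is a heterozygous parthenogenetic ES line at passages 16, 10 and 16. ORMES-22 is a biparental ES line from a fertilised embryo at passages 18, 21 and 19. All ES lines are labelled female and were grown on mouse embryonic fibroblast feeders, with RNA taken from picked undifferentiated colonies. Cell type, sex, donor and culture medium therefore cannot be told apart between fibroblasts and ES lines. Each group is 1 line or donor, so p-values measure the spread between arrays of a line and not between individuals.

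The array medians lay between 5.014 and 5.101. Arrays of a group correlated at 0.9937 or above outside ORMES-22, where array A correlated with B at 0.9855 and with C at 0.9844, and B with C at 0.9928. Results for the ES lines are therefore also given without ORMES-22 array A. A background level of 4.26 was set where 90% of the 42 bacterial control probe sets lay below it. The labels fitted the markers in most respects: 6 of 8 fibroblast markers measured were higher in fibroblasts, led by LUM, at least 146-fold higher, and FAP, at least 52.1-fold higher. These are lower bounds set at the background, because both genes averaged below it in every ES line. The ES marker POU5F1 was 8.07 log2 units lower in fibroblasts than in the ES lines, and SOX2, below background in fibroblasts, was at least 203-fold lower. Several markers did not follow the labels. The fibroblast marker DCN was 0.43 log2 units lower in fibroblasts by limma (adjusted p = 0.011), and THY1 averaged 9.42 in fibroblasts against 10.02 in ORMES-9, 9.13 in rPESC-2 and 10.06 in ORMES-22 and did not pass. The ES marker NANOG was 1.32 log2 units higher in fibroblasts by limma (adjusted p = 1.3e-05), and ZFP42 was near background in every group, between 4.38 and 4.53, and did not pass.

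Fibroblasts were compared with the mean of the 3 ES lines to set a somatic cell against pluripotent cells. PSMB8, the chymotrypsin-like subunit of the immunoproteasome, was 8.58-fold higher in fibroblasts. A call required an adjusted p under 0.05 together with a change of 2-fold or more. On the brightest probe set of each gene, PSMB8 was the only proteasome gene that met this rule. The other immunoproteasome genes rose by far less on that reading: PSME2 was 1.65-fold and PSMB10 1.26-fold higher. A dimmer PSMB10 probe set was 2.9-fold higher (limma adjusted p = 7.5e-10). Most constitutive subunits that passed the test were lower in fibroblasts, by less than 2-fold on the brightest probe set. Over the 32 proteasome genes, 7 rose and 16 fell at an adjusted p under 0.05, limma's test with Benjamini-Hochberg adjustment over all probe sets. Among all probe sets 22.3% rose and 38.0% fell, and among the 2739 genes with a mean over 9, where most members lie, 29.1% rose and 51.2% fell. The share of proteasome genes was above that of the bright genes in neither direction. Without ORMES-22 array A the counts were again 7 and 16. At the 2-fold rule 1 proteasome gene was called higher and 0 lower, against 11.1% and 19.4% of the bright genes. Of the 73 member probe sets, which include those of PSMC3IP, 20 rose and 28 fell, beside 22.3% and 38.0% of all probe sets. At 2-fold 4 member probe sets were called higher and 2 lower, beside 10.5% and 8.80% of all probe sets.

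**Figure D1:**
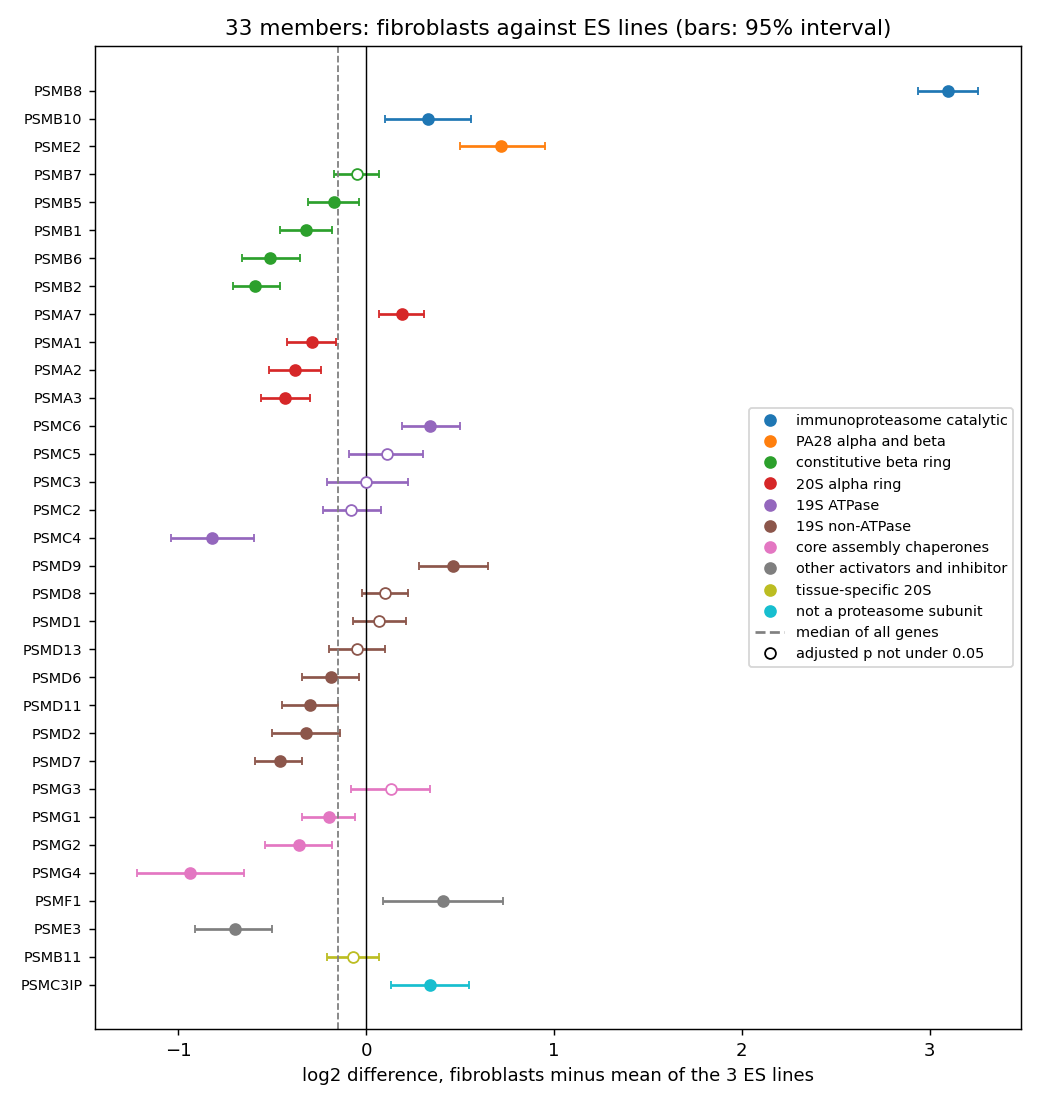
Log2 difference, fibroblasts minus the mean of the 3 ES lines, for the 33 members with 95% intervals from limma, coloured by role; open points had an adjusted p of 0.05 or more, and the dashed line is the median of all genes (-0.15). PSMB8 stands at 3.10 and every other member lies between -0.94 and 0.72.

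Fibroblasts had PSMB8 values of 7.77, 7.40 and 7.68 log2 units. ORMES-9 had 4.82, 4.85 and 4.79, rPESC-2 had 4.31, 4.31 and 4.34, and ORMES-22 had 4.38, 4.46 and 4.37. All 3 fibroblast arrays lay far above all 9 ES arrays, and the ES arrays lay just above the background of 4.26. The means were 7.61 ± 0.19 in fibroblasts, 4.82 ± 0.03 in ORMES-9, 4.32 ± 0.02 in rPESC-2 and 4.40 ± 0.05 in ORMES-22 (SD, n = 3 each). The difference from the mean of the ES lines was 3.10 log2 units (SE 0.07, limma adjusted p = 3.3e-12), and it passed against each line alone, with 2.80 against ORMES-9, 3.29 against rPESC-2 and 3.21 against ORMES-22. Since the ES values were near background, where array signal is compressed, the fold is read as a size on this array. In such bulk RNA, fewer cells expressing a gene and less of its RNA per cell cannot be told apart.

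PSMB10, the trypsin-like subunit of the immunoproteasome, was measured by a pair of probe sets that gave different sizes. On the brighter one, fibroblasts had 10.10, 9.89 and 9.97, ORMES-9 had 9.71, 9.74 and 9.53, rPESC-2 had 9.63, 9.77 and 9.87, and ORMES-22 had 9.81, 9.58 and 9.26. The lowest fibroblast array lay just above the highest ES array, and the difference was 0.33 log2 units (SE 0.10, limma adjusted p = 0.016). On the other probe set fibroblasts had 9.04, 8.92 and 9.05, while the 9 ES arrays ran between 7.33 and 7.67. That is a clear gap of 1.53 log2 units (limma adjusted p = 7.5e-10). A further probe set annotated to both PSMB10 and BEX4 went the other way, at -0.33 log2 units (limma adjusted p = 0.0036). The result of the brighter probe set did not hold everywhere: without fibroblast array A it was 0.28 (limma adjusted p = 0.086), and under quantile normalisation 0.20 (limma adjusted p = 0.10). Against single lines it was 0.32 for ORMES-9 (limma adjusted p = 0.05, just under the threshold), 0.23 for rPESC-2 (limma adjusted p = 0.15) and 0.43 for ORMES-22 (limma adjusted p = 0.012).

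PSME2, the beta subunit of PA28, had 11.18, 11.13 and 10.99 log2 units in fibroblasts. ORMES-9 had 10.37, 10.32 and 10.19, rPESC-2 had 10.46, 10.52 and 10.50, and ORMES-22 had 10.66, 10.29 and 10.05. Every fibroblast array was above every ES array. The difference was 0.72 log2 units (SE 0.10, limma adjusted p = 6.6e-05). A dim second probe set of PSME2, below background on all 12 arrays, was at -0.22 log2 units and did not pass.

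**Figure D2:**
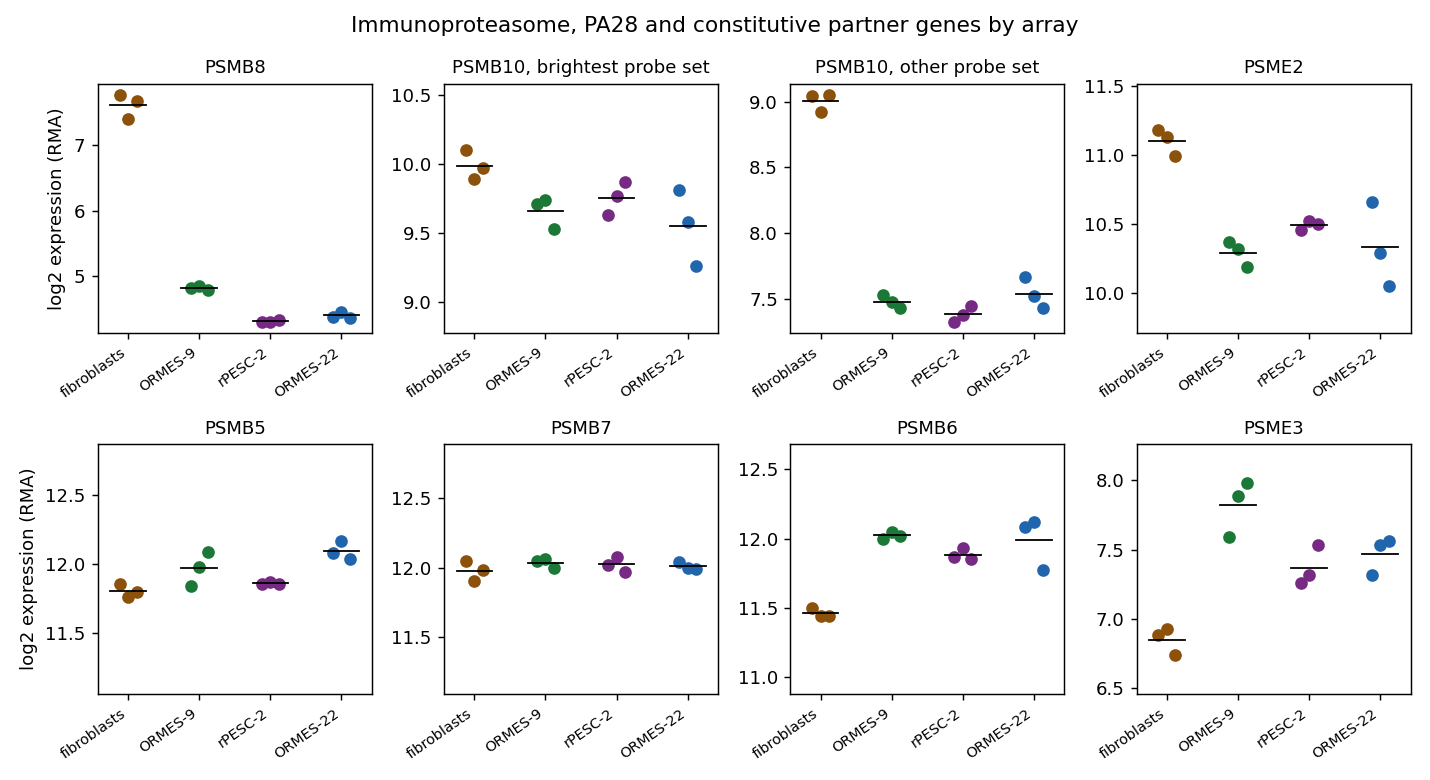
Log2 expression per array (points) and group mean (lines) for PSMB8, both probe sets of PSMB10, PSME2, the constitutive partners PSMB5, PSMB7 and PSMB6, and PSME3; vertical axes differ between panels. Fibroblasts stand above all ES arrays for PSMB8, PSMB10 and PSME2 and below all of them for PSMB6 and PSME3.

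The constitutive catalytic subunits did not mirror this gap. PSMB5, the chymotrypsin-like partner of PSMB8, had 11.86, 11.76 and 11.80 log2 units in fibroblasts and between 11.84 and 12.17 on the ES arrays, with overlapping values. It fell by 0.17 log2 units (SE 0.06, limma adjusted p = 0.031) on its brightest probe set but rose by 0.44 (limma adjusted p = 0.00018) on the other, so its direction depends on the probe set. PSMB5 passed under 19 of 25 alternatives. PSMB6, the caspase-like subunit that PSMB9 replaces, had 11.50, 11.44 and 11.44 in fibroblasts against 11.77 to 12.12 on the ES arrays. The groups were separate, and PSMB6 fell by 0.51 log2 units (SE 0.07, limma adjusted p = 6.1e-05). PSMB7, the trypsin-like partner of PSMB10, had 12.05, 11.90 and 11.98 in fibroblasts and 11.97 to 12.08 on the ES arrays. The difference of -0.05 (95% interval -0.17 to 0.07) did not pass.

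The exchange was also read within each array, as the immune subunit minus its constitutive partner. Because the probe sets of different genes differ in brightness, only the change of this value between groups is interpretable, and it shows unequal change and not which subunit moved. PSMB8 minus PSMB5 was -4.09, -4.36 and -4.12 in fibroblasts and averaged -7.16 ± 0.14 in ORMES-9, -7.54 ± 0.02 in rPESC-2 and -7.69 ± 0.02 in ORMES-22 (SD, n = 3 each). Fibroblasts were 3.27 log2 units above the 9 ES arrays, with no overlap. PSMB10 minus PSMB7 averaged -1.99 ± 0.03 in fibroblasts, -2.38 ± 0.08 in ORMES-9, -2.27 ± 0.15 in rPESC-2 and -2.46 ± 0.26 in ORMES-22. The gap was 0.38 log2 units, again with no overlap, though rPESC-2 array C at -2.10 lay near fibroblast arrays B and C at -2.01. Both pairs used the brightest probe sets. The other probe sets of PSMB10 and PSMB5 differed by 1.53 and 0.44 log2 units, and pairs with them were not formed. For both pairs the two-sided exact permutation test over arrays gave p = 0.00455, the smallest that its 220 arrangements allow, also after adjustment over the pairs. A separation of all fibroblast arrays from all ES arrays underlies this value, and 18.3% of all probe sets separated upward and 27.7% downward. For PSMB8 minus PSMB5 it largely restates the PSMB8 gap of 3.1 log2 units and is no separate support. The 9 ES arrays come from 3 lines and are not 9 independent sources. The PSMB9 and PSMB6 pair could not be formed.

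**Figure D3:**
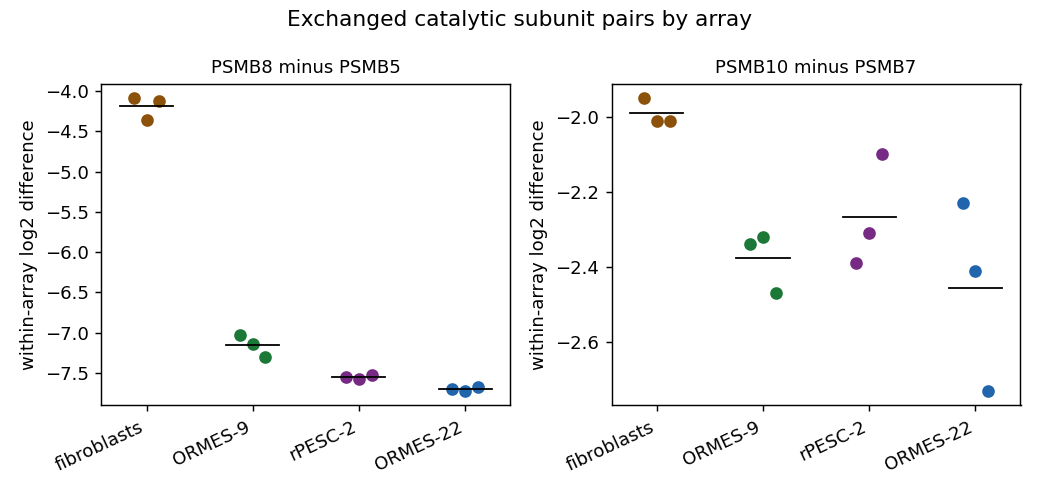
Within-array log2 difference of each exchanged pair, PSMB8 minus PSMB5 (left) and PSMB10 minus PSMB7 (right), by array (points) with group means (lines). The fibroblast arrays lie above the 9 ES arrays in both panels, by 3.27 log2 units on the left and 0.38 on the right on average.

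The remaining core subunits were mostly lower in fibroblasts. Of the beta subunits without a protease site, PSMB2 had 11.64, 11.52 and 11.51 log2 units in fibroblasts against 11.99 to 12.32 on the ES arrays. That was a fall of 0.59 (SE 0.06, limma adjusted p = 1.8e-06) with no overlap. PSMB1 fell by 0.32, but did not pass against rPESC-2 alone, at -0.19 (limma adjusted p = 0.066). A dimmer PSMB1 probe set was at -1 log2 unit (limma adjusted p = 9.5e-08), with 4.82 to 5.01 in fibroblasts against 5.72 to 6.06 on the ES arrays. In the alpha ring, which gates entry to the core, PSMA3 fell by 0.43 (limma adjusted p = 4.3e-05), PSMA2 by 0.38 and PSMA1 by 0.29. PSMA7 moved the other way, higher by 0.19 (limma adjusted p = 0.011). Its fibroblast values were 12.96, 13.05 and 12.99 against 12.67 to 12.98 on the ES arrays, which overlap. This rise was lost against ORMES-9 alone, at 0.07 (limma adjusted p = 0.43). It was also lost with the median of the PSMA7 probe sets (limma adjusted p = 0.2) and without fibroblast array B (limma adjusted p = 0.054). The medians were -0.33 over the 4 alpha genes and -0.32 over the 5 beta genes, beside -0.15 over all genes and -0.24 over the bright genes. PSMA2 did not keep its direction across probe sets, since the median of its probe sets gave 0.10.

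The 19S cap was mixed. Among the ATPases PSMC4 fell most: fibroblasts had 9.95, 9.82 and 9.92 log2 units, against 10.37 to 11.16 on the ES arrays. The groups did not overlap, and the fall was 0.82 log2 units (SE 0.10, limma adjusted p = 1.8e-05). The second PSMC4 probe set also fell, by 0.55, but a dimmer one read 7.71, 7.10 and 7.47 in fibroblasts against 4.92 to 5.81 in ES arrays, which is 2.09 log2 units higher (limma adjusted p = 1.2e-06). PSMC6 rose by 0.34 (limma adjusted p = 0.0013), though a probe set shared by PSMC6 and provisional genes stood at -0.49. PSMC2, PSMC3 and PSMC5 did not pass, at -0.08, 0.00 and 0.11, and the ATPase median was 0.00.

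Of 8 non-ATPase genes grouped with the cap, 4 fell, 1 rose, the assembly chaperone PSMD9, and 3 did not pass. PSMD7, the partner of the deubiquitinase PSMD14, had 10.44, 10.49 and 10.44 log2 units in fibroblasts against 10.73 to 11.19 on the ES arrays. It fell by 0.46 (SE 0.06, limma adjusted p = 1.6e-05), and the groups were separate. The scaffold subunits PSMD2, PSMD11 and PSMD6 fell by 0.32, 0.30 and 0.19. The fall of PSMD11 was not seen on its second probe set, at -0.03, and with the median of its probe sets it was -0.16 (limma adjusted p = 0.14). That of PSMD6 passed under 19 of 25 alternatives, and was lost with array medians subtracted (limma adjusted p = 0.055), against rPESC-2 alone (limma adjusted p = 0.24) or ORMES-22 alone (limma adjusted p = 0.059), without fibroblast array A (limma adjusted p = 0.091) or B (limma adjusted p = 0.12) and without ORMES-9 array C (limma adjusted p = 0.051). PSMD9, a chaperone of ATPase assembly rather than a part of the finished cap, rose by 0.46 (SE 0.09, limma adjusted p = 0.00052), and on its other probe sets it rose by 0.89 and 1.06. Over the 22 constitutive core and cap genes, PSMD9 included, 3 rose, 12 fell and 7 did not pass. Among the bright genes 29.1% rose and 51.2% fell. The median of the 22 genes was -0.18, beside -0.15 over all genes and -0.24 over the bright genes. Of the 22 genes, 2 had all fibroblast arrays above and 10 all fibroblast arrays below the ES arrays. Over the 32 proteasome genes 5 lay wholly above and 12 wholly below, beside 18.3% and 27.7% of all probe sets and 25.1% and 44.9% of the bright genes.

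Alternative activators and assembly factors also differed. PSME3, the nuclear PA28 gamma subunit, had 6.88, 6.93 and 6.74 log2 units in fibroblasts against 7.26 to 7.98 on the ES arrays. All fibroblast arrays were lower, by 0.70 on average (SE 0.09, limma adjusted p = 3.5e-05), while PSME2 of the cytoplasmic PA28 was higher. PSMF1, the inhibitor PI31, rose by 0.41 (SE 0.15, limma adjusted p = 0.029) with overlapping arrays. Its dimmer probe sets rose by 0.22 to 0.41. The rise passed under 20 of 25 alternatives. It was lost under quantile normalisation (limma adjusted p = 0.064) and against ORMES-9 alone (limma adjusted p = 0.18) or ORMES-22 alone (limma adjusted p = 0.052). Without fibroblast array A (limma adjusted p = 0.099) or B (limma adjusted p = 0.11) it was lost as well. The chaperone PSMG4, which helps to build the alpha ring, had 8.60, 8.38 and 8.53 in fibroblasts against 9.03 to 9.81 on the ES arrays, with no overlap. It fell by 0.94 (SE 0.13, limma adjusted p = 4.7e-05), the largest fall of any member on its brightest probe set. PSMG2 and PSMG1 fell by 0.36 and 0.20, and PSMG3 did not pass. These falls passed under 24 of 25 alternatives for PSMG2 and 21 of 25 for PSMG1. PSMB11, the thymus form of PSMB5, was near background in every group and did not pass, at -0.07.

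Several of these sizes depended on the probe set. Of the 33 members 23 had several probe sets, and in 4 of them (PSMA2, PSMB5, PSMC3IP and PSMC4) different probe sets passed in opposite directions. In PSMG1, a dim second probe set read 4.45, 4.59 and 4.69 in fibroblasts but 6.01 to 8.36 on the ES arrays, a difference of -2.72 log2 units (limma adjusted p = 3.6e-05), against -0.20 on the brightest one. The ES arrays of that probe set also spread widely within a line. What the dim probe sets detect was not tested.

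**Figure D4:**
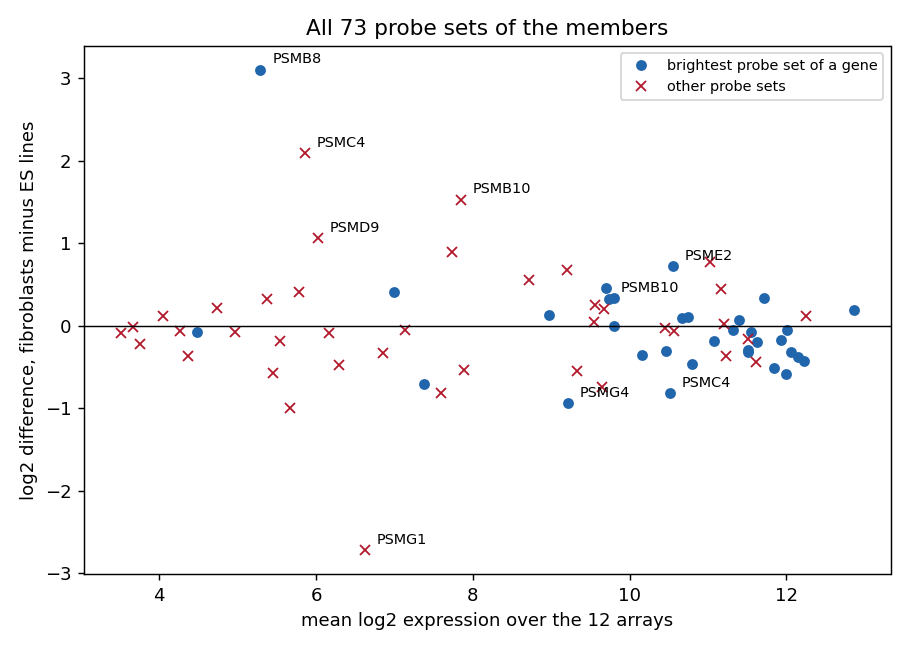
Log2 difference, fibroblasts minus the mean of the ES lines, against mean log2 expression over the 12 arrays for all 73 probe sets of the members; circles are the brightest probe set of each gene and crosses the others. Probe sets with a mean over 10 lie between -0.82 and 0.77, while dimmer ones reach from -2.72 for PSMG1 to 3.10 for PSMB8.

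Genes outside the naming pattern were counted from lists of related functions. Of 21 genes of interferon signalling and MHC class I presentation 14 were measured. Of these 12 rose in fibroblasts, 0 fell and 8 were called higher, with a median of 1.13 log2 units. Among all genes 25.8% rose, 45.4% fell and 13.2% were called higher. TAPBP, which bridges class I molecules to the peptide transporter, had 9.61, 9.28 and 9.70 in fibroblasts against 5.54 to 6.56 on the ES arrays and rose by 3.34 (SE 0.14, limma adjusted p = 7.0e-10). The transcription factor IRF2 was at least 4.72-fold higher (limma adjusted p = 2.5e-10), a bound set at the background because every ES line averaged below it, and IRF1 was 2.82-fold higher. The kinase JAK2 rose by 2.18 log2 units, the chaperone PDIA3 by 1.65 and the transporter subunit TAP2 by 1.30. Some of these, such as PDIA3, serve many glycoproteins and not only class I molecules.

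Regulators of the constitutive genes showed no such common direction. Of 7 listed, 5 were measured. NFE2L1, the factor that restores proteasome genes when the proteasome is blocked, was at 0.20 and did not pass (limma adjusted p = 0.089). NFE2L2 fell by 0.28 and MAFG by 0.46, NGLY1, which processes NFE2L1, rose by 0.26, and MAFF was called at 2.69 (SE 0.17, limma adjusted p = 4.0e-08). Of 17 assembly and associated proteins 10 were measured, of which 2 rose and 6 fell, beside 25.8% and 45.4% of all genes. The ubiquitin receptor ADRM1 fell by 0.96 (limma adjusted p = 2.0e-06) and the cap chaperone PAAF1 by 0.84 (limma adjusted p = 2.1e-05), both with no overlap.

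Immune cells make immunoproteasome, so leukocyte markers were read beside these results. Of 10 listed 7 were measured, and 4 were above background in fibroblasts and 5 in each ES line. Their summed level, as the list mean per array, ran from 4.69 to 4.79 in fibroblasts, 4.66 to 4.79 in ORMES-9, 4.69 to 4.75 in rPESC-2 and 4.74 to 4.88 in ORMES-22, so the ranges of fibroblasts and ES lines overlapped. PTPRC, the pan-leukocyte marker, was below background in every group mean. Of the 7 measured, 2 passed higher in fibroblasts, 3 passed lower and 2 did not pass, beside 25.8% and 45.4% of all genes. The monocyte genes CD14 and CD68 were higher in fibroblasts by 0.65 and 0.61 log2 units, and CD74 was lower by 0.31. TYROBP, below background in fibroblasts, averaged 3.97 there against 4.30 in ORMES-9, 4.51 in rPESC-2 and 4.40 in ORMES-22 (limma adjusted p = 0.00023). LYZ was below background in every group, at 3.31 in fibroblasts against 3.43 to 3.55 in the ES lines. Of 6 endothelial markers 1 rose and 4 fell, and of 5 measured keratinocyte and melanocyte markers 0 rose and 2 fell.

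The profile of PSMB8 across the 12 arrays was most like those of TCEAL3 (Pearson r = 0.998), STAM2 (0.998) and CD58 (0.997) among 11430 genes above background. Such values are set mainly by the gap between fibroblasts and ES lines. PSMB10 was most like USE1 (0.955), TCEAL4 (0.945) and FCGRT (0.939). On the reference table of the assembly T2T-MMU8v2.0, PSMB8 lies on chromosome 4, PSMB10 and PSMD7 on chromosome 20, and PSMB5, PSMB11 and PSME2 on chromosome 7.

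The lines described as parthenogenetic were next compared with the biparental line, the contrast on which the study's search for imprinted genes rests. In rPESC-2 against ORMES-22, 0 of the 32 proteasome genes passed an adjusted p of 0.05 by limma, beside 6.74% of all genes. The 2-fold rule was met by 0, where 1.24% of all probe sets met it. Of the 73 member probe sets 1 passed at 0.05, beside 4.81% of all probe sets. It was the dimmer one of PSMG3, 0.61 log2 units higher in rPESC-2 (limma adjusted p = 0.042). At an unadjusted p under 0.05 there were 5 proteasome genes: PSMG2 at 0.36 log2 units (limma adjusted p = 0.066) and PSMB5, PSMB2, PSMD13 and PSMB11 at -0.23 to -0.22. The share of all probe sets under that threshold was not counted. PSMG2 had 10.55, 10.60 and 10.42 in rPESC-2 against 10.33, 10.17 and 10.00 in ORMES-22. The arrays did not overlap. Without ORMES-22 array A 3 genes passed, all higher in rPESC-2: PSMG4 by 0.51, PSMG2 by 0.44 and PSME2 by 0.32. The share of all genes that passed without that array was not counted.

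In ORMES-9 against ORMES-22 only PSMB8 passed on its brightest probe set, beside 8.6% of all genes. Of the 73 member probe sets, which include those of PSMC3IP, 6 passed higher and 1 lower, beside 5.99% of all probe sets. Dimmer PSMF1 probe sets passed in both directions, at 0.67 (limma adjusted p = 0.0022) and -0.39 (limma adjusted p = 0.043). A dimmer one of PSMD9 was at 0.53 (limma adjusted p = 0.026). PSMB8 was 0.42 log2 units higher in ORMES-9 (SE 0.09, limma adjusted p = 0.016), and all 3 arrays of ORMES-9 were above those of ORMES-22. Both lines were near the background, and the gene no longer passed without ORMES-9 array A (limma adjusted p = 0.055) or array B (limma adjusted p = 0.063). Without ORMES-22 array A it was 0.41 and still passed. PSME3 and PSMD7, at 0.35 and 0.24, had arrays of ORMES-9 wholly above ORMES-22 but adjusted p-values of 0.12 and 0.072 by limma. They were 0.27 and 0.21 without ORMES-22 array A, with limma adjusted p-values of 0.20 and 0.13. No proteasome gene was called at 2-fold, where 1.58% of probe sets were.

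Between the lines described as parthenogenetic, ORMES-9 against rPESC-2, 4 of 32 proteasome genes passed, beside 7.72% of all genes and 9.46% of the bright genes. At 2-fold 0 were called, where 1.23% of probe sets were. Of the 73 member probe sets 9 passed higher and 1 lower in ORMES-9, beside 5.22% of all probe sets. The dimmer PSMA1 probe set was at 0.83 (limma adjusted p = 0.0025), against 0.02 on the brightest. PSMB8 was 0.50 log2 units higher in ORMES-9 (SE 0.09, limma adjusted p = 0.0063). PSMD7 had 11.06, 11.19 and 11.09 in ORMES-9 against 10.73, 10.73 and 10.82 in rPESC-2, a rise of 0.35 (SE 0.07, limma adjusted p = 0.011). PSME3 had 7.59, 7.89 and 7.98 in ORMES-9 against 7.26, 7.32 and 7.53 in rPESC-2, a rise of 0.45 (SE 0.11, limma adjusted p = 0.043). Neither gene overlapped between the lines, though the lowest ORMES-9 array for PSME3 lay just above the highest rPESC-2 array. The PSME3 result passed under only 11 of 23 alternatives: it was 0.18 with the median of its probe sets (limma adjusted p = 0.39), and did not pass without ORMES-9 array B or C or rPESC-2 array A or B (limma adjusted p = 0.15 to 0.16). PSMG2 fell to 10.10, 10.16 and 9.95 in ORMES-9, against 10.55, 10.60 and 10.42 in rPESC-2, a difference of -0.45 (SE 0.10, limma adjusted p = 0.021). That difference passed under 18 of 23 alternatives. It was -0.15 with the median of its probe sets (limma adjusted p = 0.37), and did not pass without ORMES-9 array A or C or rPESC-2 array A or B (limma adjusted p = 0.054 to 0.088). PSMD7 did not pass without ORMES-9 array B (limma adjusted p = 0.06).

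Over all 32 proteasome genes, those that passed included, ORMES-9 mostly read higher than rPESC-2. ORMES-9 had the highest mean of the 3 ES lines in 21 of 32 proteasome genes and the lowest in 4. The mean of rPESC-2 was the highest in 4 and the lowest in 21, and that of ORMES-22 the highest in 7 and the lowest in 7. With ORMES-22 array A left out, ORMES-9 was highest in 17 and lowest in 2, and rPESC-2 highest in 4 and lowest in 23. How often all genes or the bright genes rank in this way was not counted, so these ranks have no background beside them. ORMES-9 arrays lay wholly above rPESC-2 arrays in 13 of 32 genes and wholly below in 3, which were PSME2, PSMG2 and PSMG4. The background shares were 12.4% and 10.1% of all probe sets and 25.4% and 14.7% of the bright genes. The median of the 4 assembly chaperones was -0.17 log2 units. Over the 22 constitutive core and cap genes, 11 lay wholly above and 0 below, with a median difference of 0.13 log2 units, beside 0.02 over all genes and 0.03 over the bright genes. The largest among them without a pass were PSMC4 at 0.44 (limma adjusted p = 0.065), PSMD9 at 0.30 and PSMB1 at 0.29 (limma adjusted p = 0.059). Passage also differed between these lines, and its part in the result was not tested. Without ORMES-22 array A, which enters only the shared spread, 5 genes passed higher and 2 lower in ORMES-9. The matching share of all genes was not counted.

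**Figure D5:**
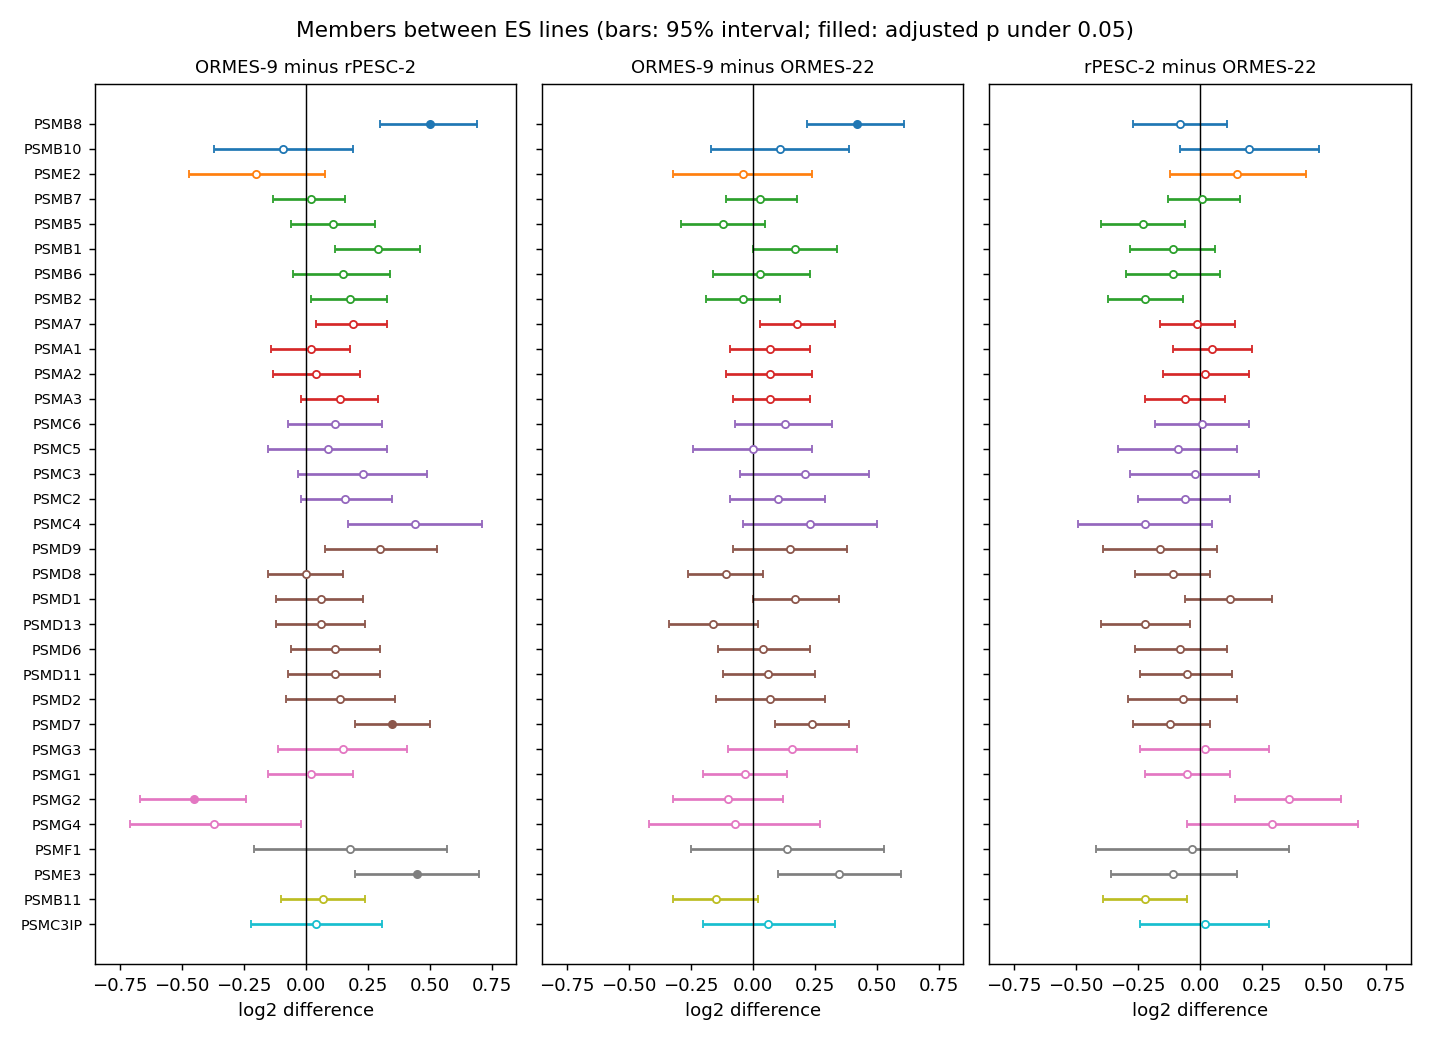
Log2 differences of the 33 members between ES lines, ORMES-9 minus rPESC-2 (left), ORMES-9 minus ORMES-22 (middle) and rPESC-2 minus ORMES-22 (right), with 95% intervals from limma; filled points had an adjusted p under 0.05, and colours follow the roles in the plot of fibroblast differences. Filled points are PSMB8, PSMD7, PSME3 and PSMG2 on the left, PSMB8 in the middle and none on the right. There limma gave 5 unadjusted p-values under 0.05, and the share of all probe sets under that threshold was not counted.

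Of the 14 class I and interferon genes measured, 1 was higher and 3 lower in rPESC-2 than in ORMES-22, beside 3.8% and 2.94% of all genes. In ORMES-9 against ORMES-22, 0 were higher and 2 lower, beside 5.48% and 3.12%. In ORMES-9 against rPESC-2, 1 was higher and 0 lower, beside 4.57% and 3.15%. The others did not pass. Without ORMES-22 array A the first 2 comparisons gave the same counts, and ORMES-9 against rPESC-2 gave 3 higher and 1 lower. JAK2 had 8.46, 8.38 and 8.45 log2 units in rPESC-2 against 9.36, 9.53 and 9.52 in ORMES-22, and was called lower, by 1.04 (SE 0.08, limma adjusted p = 1.9e-05). ORMES-9 was lower than ORMES-22 as well, by 0.74. These were -1.10 and -0.79 without ORMES-22 array A. TAP1 was 0.66 higher and B2M 0.57 lower in rPESC-2 than in ORMES-22, while PSMB8 differed there by -0.08 (95% interval -0.27 to 0.11, limma adjusted p = 0.66). TAP1 was at 0.83, B2M at -0.63 and PSMB8 at -0.09 with that array left out. These comparisons share the ORMES-22 arrays.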

How the data were processed

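Per the labels' protocols, total RNA was labelled by a one-cycle protocol and hybridised to 1 array per sample. The deposited table holds log2 values per probe set. The submitters' processing notes name RMA as the authors' method. Its software, version and probe set definition are not given in the sources used here, and the log2 scale was read from the values. RMA makes arrays alike in distribution, so a shift shared by most genes would be reduced. Of 52865 features, 158 controls were left out, and 0 columns belonged to other samples.

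Differences were fitted with limma 3.58.1 in R 4.3.3 (group means over all 12 arrays, no covariate, 8 residual and 3.69 prior degrees of freedom), with two-sided p-values adjusted by the Benjamini-Hochberg method over 52707 probe sets. The fit was tested on simulated data. Figures were drawn with matplotlib 3.10.9. The number of arrays limits the precision. Named members were the immunoproteasome and PA28 genes, their partners, the genes called and the largest differences until 10 were named per comparison. Others were added after their values were seen. Members and lists were chosen with earlier results of these data known. The reference table served only for names and chromosomes. Alternatives covered normalisation, moderation, filters, probe set choice, the replicate letter as a block and each array left out in turn.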

Additional observations from a re-analysis of the deposited data

How the results depend on the processing

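PSMB8 passed in fibroblasts against the ES lines under all 25 alternatives, at 2.80 to 3.29 log2 units, and PSME2 under all 25, at 0.59 to 0.80. PSMB10 passed under 22 of 25, at 0.20 to 0.93. The count of members called in fibroblasts was 1. It was 2 under quantile normalisation (with PSMG4 at -1.02), 2 with the median of a gene's probe sets (PSMG1 at -1.46), 2 against ORMES-9 alone (PSMC4 at -1.04), 2 against rPESC-2 alone (PSMG4 at -1.16), 6 with a 1.5-fold minimum and 24 with no minimum. Without a minimum it was 1 in ORMES-9 against ORMES-22 and 4 in ORMES-9 against rPESC-2. The median of the constitutive core and cap genes was -0.18, and was -0.34 under quantile normalisation and -0.09 against rPESC-2 alone; that of the immunoproteasome and PA28 genes was 0.72, and was 0.59 under quantile normalisation and 0.93 with the median of probe sets. Proteasome genes that passed split into 7 higher and 16 lower, into 5 and 19 under quantile normalisation and into 7 and 14 with array medians subtracted. The median of all genes was -0.15, and -0.14 and -0.12 under those scalings.

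With the median of probe sets, PSMA2 (0.10), PSMB5 (0.13), PSMD1 (-0.15) and PSMG3 (-0.22) changed direction in fibroblasts, as did the medians of the alpha ring in rPESC-2 against ORMES-22 (-0.10) and of the assembly chaperones in ORMES-9 against ORMES-22 (0.11). The 19S ATPase median of 0.00 was -0.13 under quantile normalisation and -0.14 against ORMES-9 alone. With each array left out in ORMES-9 against ORMES-22, medians ran from -0.04 to 0.24 for the immunoproteasome and PA28 genes, -0.07 to 0.04 for the constitutive beta genes and -0.01 to 0.12 for the cap non-ATPases; the cause was not tested. In ORMES-9 against rPESC-2, 4 genes passed. There were 2 without any one of ORMES-9 arrays B and C and rPESC-2 arrays A and B, and 7 without ORMES-22 array A.

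Replicate letters did not pair the arrays: same-letter arrays correlated at -0.31 to 0.26, 6 of 18 pairs over 0.1, and 7 of 18 correlated best with their own letter. With the letter as a replicate block, 1 member was called in fibroblasts, the constitutive and immunoproteasome medians stayed at -0.18 and 0.72, and the pair differences were 3.27 and 0.38 (exact permutation p = 0.016 each). PSMG2 then passed in rPESC-2 against ORMES-22 (limma adjusted p = 0.028).

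With 3 arrays of 1 line per group, differences between lines stand for single lines. Values near the background of 4.26 understate a difference, which touches PSMB8, IRF2, LUM and FAP in the ES lines, SOX2 in fibroblasts, PSMB11 and the dim second probe sets.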
